A study of Homo sapiens with 5 samples.

Results

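The genes described here are those that encode the proteins of the cytosolic ribosome, measured by RNA sequencing in HEK293T cells, an established line derived from human embryonic kidney and expressing the SV40 large T antigen. They were taken by gene symbol: names beginning with RPL or RPS and a digit, together with RPLP0, RPLP1, RPLP2 and RPSA, and without the kinases of the RPS6K family and without RPS19BP1. This gave 115 of the 19716 genes with a read in any library. Of these, 46 encode core proteins of the large subunit and 31 core proteins of the small subunit, 8 are paralogs of core genes, 26 are pseudogenes, and 4 are readthrough or antisense rows. The 77 core genes carry nearly the whole signal, and the other classes are described separately below.

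Each of the 5 libraries stands for 1 group. For 4 of them the transfection contained 5 guide RNAs (sgRNAs) aimed at the uPA promoter and a fusion of dCas9, a Cas9 that binds DNA without cutting it, with blue fluorescent protein (BFP) and a further partner. The partner was the catalytic part of DNMT1, the enzyme that copies methylation onto new DNA (dCas9-BFP-DNMT1), of DNMT3A (dCas9-BFP-DNMT3A) or of DNMT3B (dCas9-BFP-DNMT3B), the enzymes of de novo methylation, or EGFP, a green fluorescent protein without methyltransferase activity (dCas9-BFP-EGFP). The paper found raised methylation of the uPA promoter with the DNMT3A and DNMT3B fusions, but not with the DNMT1 or EGFP fusion. The remaining cells received pUC19, a plasmid that carries neither dCas9 nor a guide. RNA was taken 48 h after transfection with 1 ug of plasmid, and per the labels from cells sorted for BFP, also in the group given pUC19, a plasmid without BFP. The groups therefore share the cell line, the transfection reagent and the time, they were transfected transiently, and an effect of the guides cannot be told apart from that of dCas9 in the comparisons with pUC19. The libraries are named below by the partner of dCas9 or as pUC19. With 1 library per group, no difference has a replicate check.

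The libraries held between 26250000 (EGFP) and 36140000 (pUC19) reads assigned to genes in rounded numbers, so that 3 reads corresponded to between 0.083 and 0.114 reads per 1000000. Levels are given in TPM, reads per gene length scaled to the same sum in each library, and can be compared between genes. The reads of the plasmid-encoded DNMT domains fell on the rows of the endogenous genes and took 1.46%, 1.69% and 3.33% of the summed TPM in the DNMT1, DNMT3A and DNMT3B libraries, against 0.022% in the EGFP library and 0.023% in the pUC19 library. All 7 markers of HEK293T cells were detected in every library, with VIM between 437 and 599 TPM, while the kidney marker UMOD was listed at 0 in all 5 and AQP1 did not exceed 1.71 TPM. In bulk RNA, fewer cells of a kind and less RNA per cell cannot be told apart.

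The cytosolic ribosome is built from a small subunit, which reads the mRNA, and a large subunit, which forms the peptide bond. Each subunit holds 1 copy of most of its proteins, so the genes are expressed together at high levels in growing cells. Their mRNAs usually begin with a C followed by a run of pyrimidines, the terminal oligopyrimidine (TOP) start, through which mTOR signalling adjusts their translation. The human genome also carries many processed pseudogenes of these genes. On GRCh37, the build used for the deposited tables, every core gene had at least 1 pseudogene bearing its name in GENCODE v44, with a median of 14 per gene and up to 133 for RPL21. Reads were mapped to RefSeq transcripts, and only uniquely mapped reads were counted. The level of a gene with near-identical copies is therefore uncertain, but the genomic counts of pseudogenes do not measure by how much.

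The starts of the core mRNAs are shown for members on which the comparisons below turn and for the most abundant ones. Each line holds 30 bases of GRCh37 on the strand of the gene, 5′ to 3′: 10 bases before the annotated start of the canonical transcript and 20 from it. The run of pyrimidines that begins at a start base C is in capitals, and a line without capitals starts with another base.
RPS2 (chr16:2014808-2014837, minus strand): aggtctcgttCTTCTTTTCCgacaaaacac
RPS6 (chr9:19380215-19380244, minus strand): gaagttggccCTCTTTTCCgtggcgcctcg
RPL41 (chr12:56510407-56510436, plus strand): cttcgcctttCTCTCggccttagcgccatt
RPS27 (chr1:153963228-153963257, plus strand): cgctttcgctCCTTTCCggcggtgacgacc
RPL39 (chrX:118925574-118925603, minus strand): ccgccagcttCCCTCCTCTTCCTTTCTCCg
RPLP0 (chr12:120638895-120638924, minus strand): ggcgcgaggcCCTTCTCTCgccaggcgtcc
RPSA (chr3:39448201-39448230, plus strand): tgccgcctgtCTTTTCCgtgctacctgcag
RPL21 (chr13:27825685-27825714, plus strand): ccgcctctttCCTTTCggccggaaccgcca
RPL13 (chr16:89627080-89627109, plus strand): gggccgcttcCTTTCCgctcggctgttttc
RPL13A (chr19:49990855-49990884, plus strand): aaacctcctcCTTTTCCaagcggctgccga
RPL14 (chr3:40498820-40498849, plus strand): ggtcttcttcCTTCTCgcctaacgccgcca
RPL17 (chr18:47018816-47018845, minus strand): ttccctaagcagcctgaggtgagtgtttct
RPS4X (chrX:71497079-71497108, minus strand): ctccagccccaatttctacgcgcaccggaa

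A C at the start base followed by at least 4 pyrimidines, read on the strand of the gene only, was found in 58 of 77 core genes (75.3%), in 34 of 46 genes of the large subunit and in 24 of 31 of the small subunit. The same start was found in 16 of 19 genes of a list of elongation and initiation factors and other abundant proteins, many of them known for this start, in 5 of 79 genes of mitochondrial ribosomal proteins, which serve a different ribosome, and in 796 of the 15808 protein-coding genes with a read and an annotated start (5.04%). The longest run in a core gene was the 19 bases of RPL39. RPL17 and RPS4X have an A at the annotated start base, which says only that the start as annotated does not match. The 58 core genes with such a start and the 19 without one had nearly the same median log2 ratio to the pUC19 library: 0.13 and 0.17 in the DNMT1 library, 0.04 and −0.01 in DNMT3A, −0.09 and −0.10 in DNMT3B, and 0.07 and 0.02 in EGFP.

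The members together made up between 20.1% and 23.9% of the mRNA in these cells when counted per length. The summed TPM was 23.9% of all TPM in the DNMT1 library, 21.6% in DNMT3A, 20.1% in DNMT3B, 22.5% in EGFP and 21.5% in pUC19. The DNMT1 library was thus the highest and the DNMT3B library the lowest, with pUC19 and DNMT3A close to each other between them. As a share of reads, which weights short genes less, the values were 9.23% (95% Wilson interval 9.22% to 9.24%), 8.05% (8.04% to 8.06%), 7.15% (7.14% to 7.16%), 8.40% (8.39% to 8.41%) and 8.20% (8.19% to 8.21%) in the same order. These intervals do not overlap, but they cover counting error only and say nothing about the spread between cultures. The order of the highest and the lowest library did not depend on the transfected genes: without the 3 DNMT rows the shares of TPM were 24.2% in the DNMT1 library and 20.8% in the DNMT3B library, against 21.5% in pUC19.

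**Figure D1:**
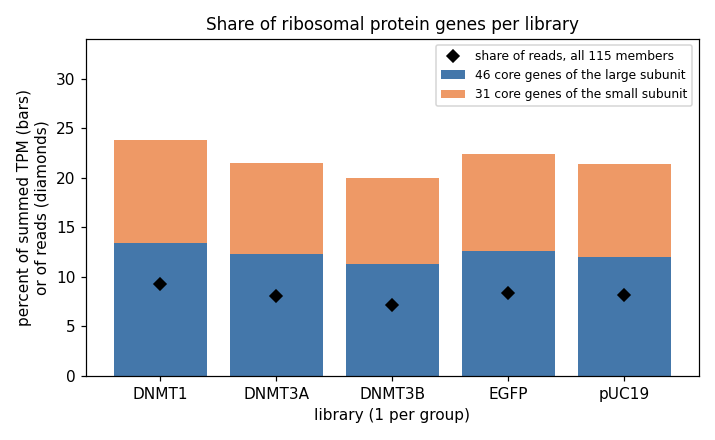
Share of the ribosomal protein genes in each of the 5 libraries. Bars give the percent of summed TPM in the 46 core genes of the large subunit (blue) and the 31 of the small subunit (orange), and diamonds the percent of reads in all 115 members. The bars are highest for DNMT1 and lowest for DNMT3B.

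The balance of the subunits hardly moved. The summed TPM of the large subunit was 1.29 times that of the small subunit in the DNMT1, DNMT3B, EGFP and pUC19 libraries and 1.33 times in DNMT3A. The median TPM per gene was 2513 for the large subunit and 2248 for the small subunit in the pUC19 library, and between 2253 and 2815 for the large and 1897 and 2286 for the small subunit in the fusion libraries.

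All 77 core genes were above 1 TPM in every library. The highest was RPS2, a protein of the small subunit close to where the mRNA enters, at 14511 TPM in the DNMT1 library, 11903 in DNMT3A, 11606 in DNMT3B, 13358 in EGFP and 12642 in pUC19. It was followed in the pUC19 library by RPS4X at 8869 TPM, RPS6, the ribosomal substrate of the S6 kinases, at 8143, RPL41, the shortest of the ribosomal proteins, at 6585, and RPS27, a zinc-finger protein, at 5814. RPS2 and RPS4X had the same order of libraries, with DNMT1 highest and DNMT3B lowest, whereas RPL41 and RPS27 were lowest in pUC19.

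Among the lowest core genes in the pUC19 library were RPS29 at 264.5 TPM, RPL36A at 271.7, RPL17 at 403.0 and RPS23, a protein of the decoding centre, at 423.5. Some low levels go along with incomplete coverage or a long gene model. RPL17 had reads over 70.4% to 73.5% of its length, and RPS23 is listed at 3325 bases against a median of 793 for core genes. Coverage below 75% in at least 1 library was seen for 6 core genes, among them RPL10, RPL13, RPS10, RPL17 and RPL34. The lowest value was 36.7% for RPL10, a gene with between 31543 and 48365 reads, so few reads were not the limit there. The part of the listed length and of near-identical copies in these levels was not tested.

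**Figure D2:**
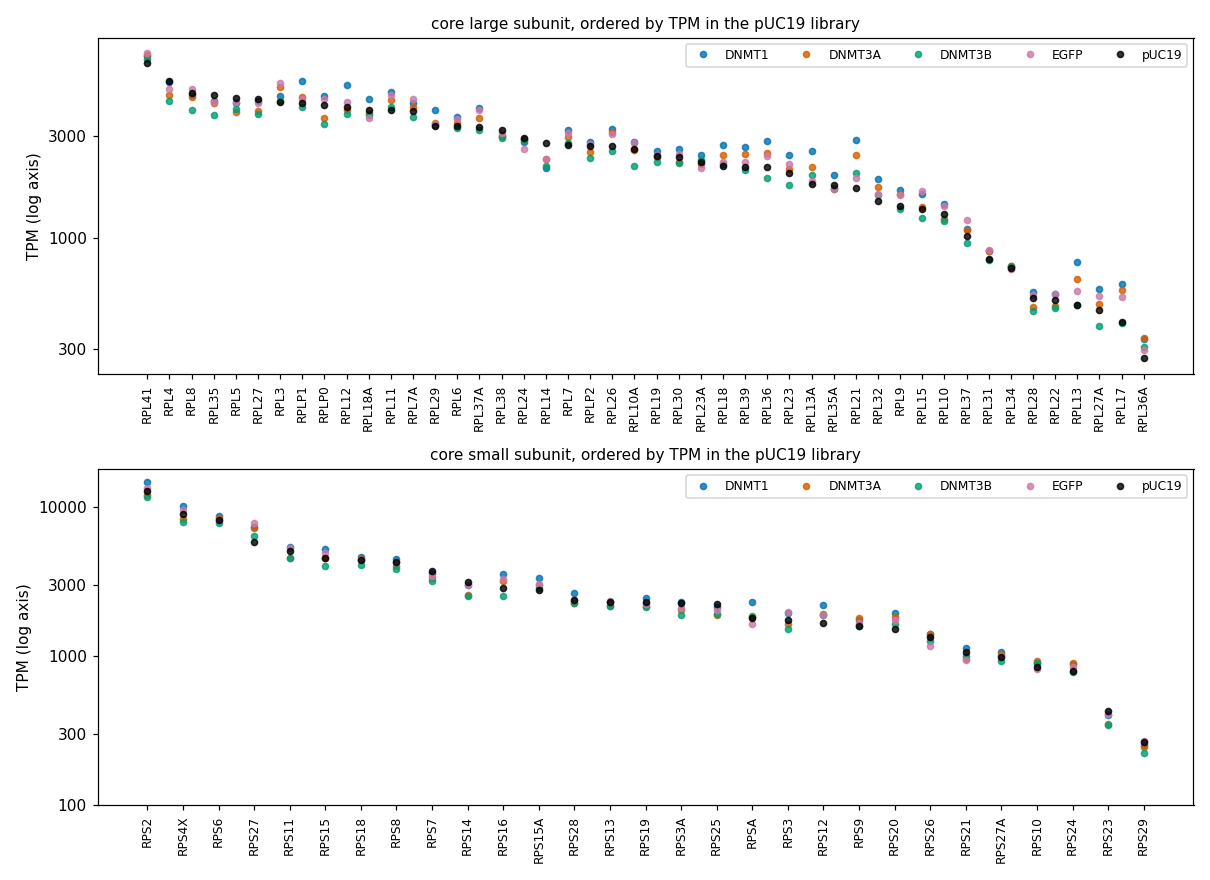
TPM (log axis) of each core gene in the 5 libraries, for the large subunit (top) and the small subunit (bottom), ordered by the pUC19 library. Not every core gene is drawn. Those drawn differ far more from each other, from 264.5 TPM (RPS29) to 12642 TPM (RPS2) in pUC19, than a gene differs between libraries (median 1.23-fold).

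Across libraries the core genes varied little. The ratio of the highest to the lowest of the 5 libraries had a median of 1.23 over the 77 core genes, against 1.38 over the 1807 genes with a mean of at least 100 TPM. RPL34 was the most even, with 733.7, 734.1, 731.7, 715.1 and 724.4 TPM in DNMT1, DNMT3A, DNMT3B, EGFP and pUC19 and a ratio of 1.03. Among the least even were RPL21 with a ratio of 1.68 and RPL13 with 1.59. For 69 of 77 core genes the range was under 0.5 on the log2 scale. The highest library was DNMT1 for 48 of 77 core genes, EGFP and pUC19 for 12 each, DNMT3A for 5 and DNMT3B for 0. The lowest library was DNMT3B for 48, pUC19 for 15, EGFP for 9, DNMT3A for 4 and DNMT1 for 1.

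Pairs of libraries were then compared gene by gene, first each fusion with pUC19, which asks what transfection of a dCas9 fusion with the guides goes along with. The reads of the pair were set against their totals in an exact binomial test (conditional, two-sided), adjusted by Benjamini-Hochberg over all genes with a read in either library. It compares the 2 libraries and not the conditions. At the thresholds of the study, 2-fold and an adjusted p-value of 0.001 or less, called genes made up 5.16% of all genes in the DNMT1 library, 9.36% in DNMT3A, 8.76% in DNMT3B and 5.7% in EGFP. Of the members, 4 of 114 with a read were called in DNMT1, 4 of 115 in DNMT3A, 3 of 115 in DNMT3B and 0 of 115 in EGFP. Of these, 1 in the DNMT1 library was a core gene, and the others were pseudogenes. Fold changes are ratios of TPM + 0.1, which understate changes of genes of low level.

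Since highly expressed genes of one complex rarely differ 2-fold, calls were also made at the same adjusted p-value with a log2 ratio of at least 0.32 in either direction, the smaller threshold of size. In the DNMT1 library 15 of 77 core genes were higher than in pUC19 and 1 was lower, where 8.73% of all genes were called higher and 20.7% lower. In the DNMT3A library 5 were higher and 0 lower, with 17.7% and 19% of all genes. In DNMT3B, 0 were higher and 1 was lower, with 17.5% and 18.3%, and in EGFP 2 were higher and 0 lower, with 14.2% and 16%. The counts of core genes and the shares of all genes stand side by side here, without a test between them. Among the pseudogenes, paralogs and readthrough rows, 2 were higher and 7 lower in DNMT1, 4 higher and 6 lower in DNMT3A, 2 higher and 6 lower in DNMT3B, and 2 higher and 2 lower in EGFP.

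As a group the core genes were shifted a little. Their median log2 ratio to pUC19 was 0.14 in the DNMT1 library, where 62 of 77 were above 0 and 15 below, while the median of all genes tested was −0.15. It was 0.03 in DNMT3A (all genes −0.06), −0.09 in DNMT3B with 19 above and 58 below 0 (all genes −0.05), and 0.07 in EGFP with 53 above 0 (all genes 0.00). The core median minus that of all genes was thus 0.29 in DNMT1, 0.09 in DNMT3A, −0.04 in DNMT3B and 0.07 in EGFP. The sign for DNMT3B depended on the processing: after removal of each library's trend on GC content and gene length, the core median was 0.14, which was 0.08 above all genes. The same removal raised the core genes called higher to 29 in DNMT1, 13 in DNMT3A, 7 in DNMT3B and 13 in EGFP, where 10.1%, 17.8%, 17.9% and 15.7% of all genes tested were called higher. TMM scaling raised them to 29 in DNMT1, where 13.2% of all genes were called higher. An assumed coefficient of variation of 0.2 between cultures left 0 calls among the members at either threshold in all 7 comparisons with pUC19 and EGFP, and at most 0.717% of all genes at 2-fold.

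**Figure D3:**
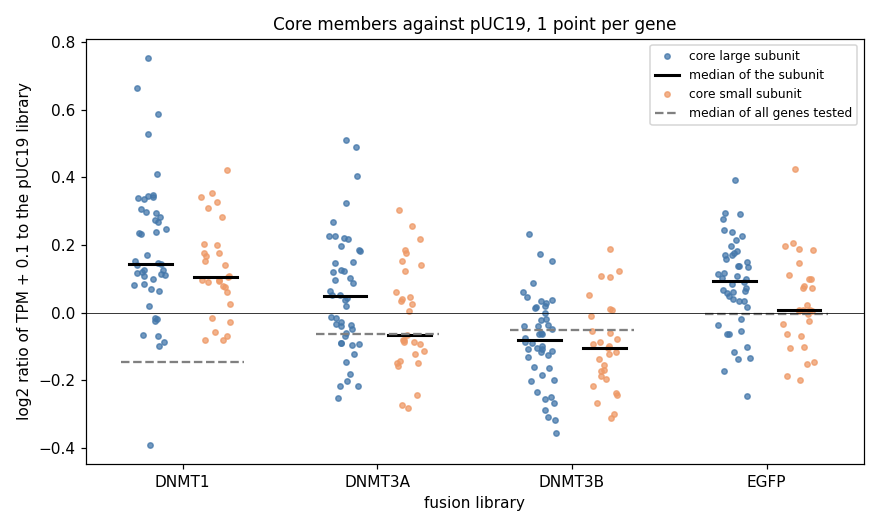
Log2 ratio of TPM + 0.1 to the pUC19 library for core genes in each fusion library, 1 point per gene (not every core gene is drawn), with the median of each subunit (black) and of all genes tested (dashed). The core genes sit above the dashed line in DNMT1 (median 0.14 against −0.15) and around it in DNMT3B (−0.09 against −0.05), where the side changes to above it (0.14) after the GC and length trend is removed.

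Among the core genes with larger differences were RPL21, RPL13, RPL17 and RPL13A of the large subunit. RPL21 had 2884 TPM in the DNMT1 library, 2441 in DNMT3A, 2012 in DNMT3B, 1899 in EGFP and 1712 in pUC19. RPL13 had 770.4, 642.8, 485.5, 564.4 and 486.2 TPM in that order, and RPL13A, which is also known as an inhibitor of translation of inflammatory mRNAs once released from the ribosome, had 2564, 2140, 1978, 1853 and 1778. All 3 were highest in DNMT1 and second in DNMT3A, and the remaining libraries lay closer together. RPL17 had 605.7, 566.0, 396.6, 528.4 and 403.0 TPM, so that DNMT3B and pUC19 were low and the EGFP library stood with the other fusions. Log2 ratios to pUC19 in the DNMT1 library were 0.75 for RPL21, 0.66 for RPL13, 0.59 for RPL17 and 0.53 for RPL13A, and all 4 were called at the smaller threshold. In DNMT3A they were 0.51, 0.40, 0.49 and 0.27, of which the first 3 were called. In DNMT3B none of the 4 was called, with 0.23 for RPL21, −0.02 for RPL17 and 0.15 for RPL13A. The coverage of RPL13 ranged from 49.5% in DNMT3B to 88.4% in pUC19, wider than for RPL17 (70.4% to 73.5%), and RPL21 was covered completely but has more annotated pseudogenes than any other core gene.

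RPL14 was the only core gene called lower against pUC19. It had 2119 TPM in the DNMT1 library, 2329 in DNMT3A, 2169 in DNMT3B and 2340 in EGFP, against 2777 in pUC19. All 4 fusion libraries were below pUC19, with log2 ratios of −0.39, −0.25, −0.36 and −0.25, and those of DNMT1 (exact test, adjusted p = 7.84e-228) and DNMT3B passed the threshold on size. In DNMT3A, RPS23 (−0.28) and RPS14 (−0.27) lay below RPL14. Other low ratios were −0.10 for RPL35 and −0.09 for RPL38 in DNMT1, −0.32 for RPL4 and −0.31 for RPS23 in DNMT3B, and −0.20 for RPS26 and −0.19 for RPS21 in EGFP. None of these was called.

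RPS27 and RPL15 led with RPL17 in the EGFP library. RPS27 had 7293 TPM in DNMT1, 7176 in DNMT3A, 6333 in DNMT3B and 7807 in EGFP, against 5814 in pUC19, and was called higher in EGFP (log2 ratio 0.43) and in DNMT1 (0.33) but was not called in DNMT3A (0.30). RPL17 was called in EGFP with 0.39, and RPL15 had 0.29 and was not called. RPL36A, at 333.7, 340.2, 306.3, 298.3 and 271.7 TPM, was called in DNMT3A (0.32). The largest ratios of DNMT3B were those of RPL21 (0.23), RPS12 (0.19) and RPL36A (0.17), and none was called.

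**Figure D4:**
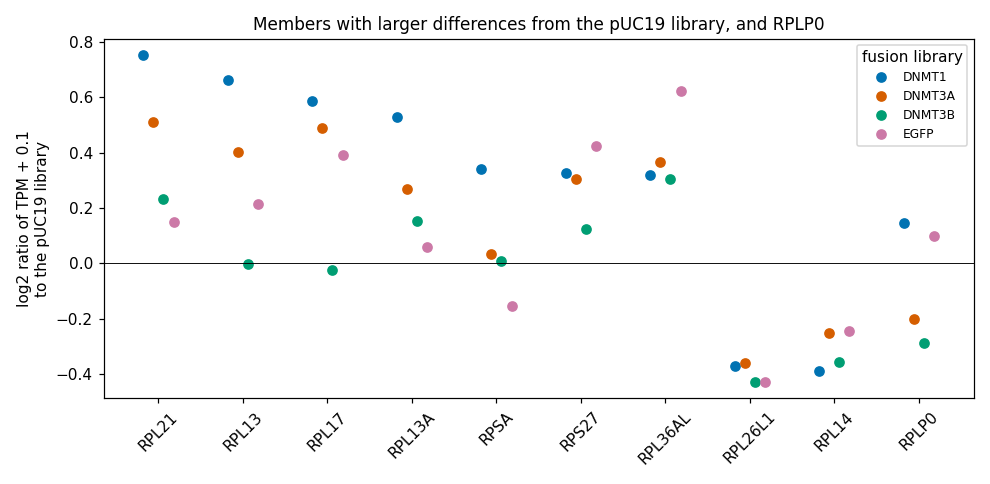
Log2 ratio of TPM + 0.1 to the pUC19 library in the 4 fusion libraries for members with larger differences and for RPLP0. RPL21 is highest in DNMT1 and DNMT3A (0.75 and 0.51) and lower in DNMT3B and EGFP (0.23 and 0.15), and RPL36AL, RPL26L1 and RPL14 lie on one side of 0 in all 4.

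The stalk of the large subunit, which recruits the elongation factors, is formed by RPLP0 with RPLP1 and RPLP2. RPLP0 had 4621 TPM in the DNMT1 library, 3638 in DNMT3A, 3426 in DNMT3B, 4479 in EGFP and 4183 in pUC19, and was thus lower in both libraries with a de novo methyltransferase. RPLP1 had 5432, 4550, 4108, 4468 and 4278 TPM and was called higher against pUC19 in DNMT1 (log2 ratio 0.34). RPLP2 had 2816, 2528, 2371, 2759 and 2694 TPM, and its log2 ratios to pUC19 stayed between −0.18 and 0.06. Each of the 3 stalk genes had its maximum in DNMT1 and its minimum in DNMT3B.

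RPL5 and RPL11, which together with the 5S rRNA bind MDM2 and stabilise p53 when ribosome assembly fails, did not move together. RPL5 had 4301 TPM in the DNMT1 library, 3882 in DNMT3A, 4029 in DNMT3B, 4313 in EGFP and 4507 in pUC19, with pUC19 the highest. RPL11 had 4839, 4408, 4110, 4696 and 3981 TPM, with pUC19 the lowest. None of these ratios reached the smaller threshold. RPS19, the gene most often mutated in Diamond-Blackfan anaemia, (an inherited failure of red cell formation) had 2431, 2157, 2132, 2231 and 2282 TPM, with log2 ratios between −0.10 and 0.09. RPSA, which is also known as a laminin receptor, had 2286 TPM in DNMT1 and 1846, 1813, 1622 and 1803 in the others, and DNMT1 stood above the rest (log2 ratio to pUC19 0.34, exact test, adjusted p = 4.22e-222).

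The EGFP fusion shares dCas9, BFP and the guides with the methyltransferase fusions, so it serves as the closer control for the methyltransferase domain. At the smaller threshold, the DNMT1 library had 5 core genes higher than in EGFP and 0 lower, where 3.72% of all genes were called higher and 14% lower. The DNMT3A library had 2 higher and 0 lower (13.3% and 12.9% of all genes). The DNMT3B library had 0 higher and 10 lower (12.4% and 11.4%). RPL21, RPSA, RPL13A and RPL13 were among those higher in DNMT1, with log2 ratios of 0.60, 0.50, 0.47 and 0.45, and RPL21 in DNMT3A, with 0.36. In DNMT3B the lower genes were RPL27A (−0.48), RPL15 (−0.43), RPL17 (−0.41), RPLP0 (−0.39), RPS3 (−0.38), RPS16 (−0.38), RPL10A (−0.36), RPL37 (−0.35), RPL23 (−0.34) and RPL36 (−0.33). The core median against EGFP was 0.08 in DNMT1, −0.05 in DNMT3A and −0.15 in DNMT3B, where 65 of 77 core genes were below 0 and the median of all genes was −0.02. After removal of the GC and length trend, the core median of DNMT3B was −0.02, and 3 core genes were called lower, beside 9.71% of all genes. Under TMM scaling, 19 core genes in place of 5 were higher in DNMT1 than in EGFP, beside 7.12% of all genes. These comparisons share the EGFP library, and those above share the pUC19 library, so they are not independent of each other.

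The spread between constructs gives a stricter scale. In an edgeR quasi-likelihood fit of the 4 fusions against pUC19, 0 of 110 members passed an adjusted p-value of 0.05, while 0.737% of all genes passed in either direction. By DESeq2, 0 members passed, and 3.51% of all genes were higher and 3.12% lower. The members with the smallest p were RPL19P12 (log2 fold change 2.24, adjusted p = 0.147), RPL36AL (0.46, adjusted p = 0.263) and RPL23AP82 (0.64, adjusted p = 0.314) among higher ones, and RPL26L1 (−0.34, adjusted p = 0.375), RPS10P7 (−1.61, adjusted p = 0.397) and RPS26P11 (−1.04, adjusted p = 0.436) among lower ones. The constructs are not replicates, the pUC19 arm is 1 library, and the common coefficient of variation between the fusions was 0.205.

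The second fit set the fusions with a de novo methyltransferase, DNMT3A and DNMT3B, against DNMT1 and EGFP. Here 0 of 77 core genes passed by edgeR's quasi-likelihood test. An unadjusted p under 0.05 was seen for 9 core genes, and for 4419 of all 15332 genes tested. DESeq2 called 2 of them lower, and 5.94% of all genes. Of all 105 members tested, 1 was higher and 2 were lower, all of them pseudogenes described below, where 6.9% of all genes were higher and 4.15% lower. By p, RPL21P44 came next among lower members (log2 fold change −1.38, edgeR adjusted p = 0.117). RPL32P3 (0.49, adjusted p = 0.141) and RPL13P5 (0.75, adjusted p = 0.236) came next among higher ones. The median log2 fold change of the core genes was −0.19, against −0.01 over all genes. RPLP0 (−0.42, adjusted p = 0.126), RPS3 (−0.38, adjusted p = 0.131) and RPL27A (−0.40, adjusted p = 0.133) had the smallest p among core genes and were named after their values were seen. The median depended on which library was left out, and each such fit leaves 1 library alone in its arm, assumed to vary like the others. The core median was −0.32 without EGFP, −0.08 without DNMT1, −0.26 without DNMT3A and −0.14 without DNMT3B.

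The paralogs are separate genes whose products can take the place of a core protein. RPL36AL, the autosomal paralog of RPL36A, was higher than in pUC19 in all 4 fusion libraries, with 643.5 TPM in DNMT1, 663.5 in DNMT3A, 636.1 in DNMT3B and 792.8 in EGFP against 515.4 in pUC19. Its log2 ratios were 0.32, 0.36, 0.30 and 0.62, of which those of DNMT3A and EGFP were called, while that of DNMT1 lay just under the threshold. RPL26L1, the paralog of RPL26, went the opposite way, with 172.4, 173.7, 165.8 and 165.7 TPM against 223.3 in pUC19, and was called lower in all 4 (log2 ratios −0.37, −0.36, −0.43 and −0.43). Its parent RPL26 had 3247, 3119, 2549 and 3075 TPM against 2683, and was not called.

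RPL7L1 had 192.0 TPM in the DNMT1 library, 215.1 in DNMT3A, 216.1 in DNMT3B and 233.4 in EGFP against 185.5 in pUC19, and was called in EGFP (log2 ratio 0.33). Its parent RPL7 had between 2734 TPM (pUC19) and 3212 TPM (DNMT1). RPL22L1, the paralog that stands in for RPL22, had 23.6, 22.9, 20.2, 28.7 and 24.6 TPM and was lower than in EGFP in DNMT3A (log2 ratio −0.32) and in DNMT3B (−0.50), while RPL22 stayed between 468.1 and 547.8 TPM. RPL39L, known for its role in the testis, had 40.1, 31.7, 27.2, 31.1 and 32.5 TPM, far below RPL39 (2068 to 2669 TPM), and RPS27L, a target of p53, had 23.8, 29.3, 26.0, 26.0 and 28.0 TPM. Neither was called against pUC19. RPL10L and RPL3L, the other paralogs, did not exceed 1.5 TPM.

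Of the 26 pseudogene rows, 13 were above 1 TPM in every library, and the highest value was 41.4 TPM. Such rows share sequence with the core mRNAs, so their levels are uncertain. RPS10P7 had 3 reads in the DNMT1 library, 4 in DNMT3A and 6 in DNMT3B, against 28 in EGFP and 44 in pUC19. RPL13AP3 had 5, 3 and 2 reads against 23 and 33, and RPL13AP20 had 20, 23 and 24 against 62 and 65. For all 3 rows the fusions with a DNMT domain were low and EGFP and pUC19 high. This includes the DNMT1 fusion, with which the paper found no raised methylation of the uPA promoter. How many of all genes split the libraries in this way was not counted. Log2 ratios to pUC19 in DNMT1, DNMT3A and DNMT3B were −3.18, −2.88 and −2.23 for RPS10P7 (exact test, adjusted p of 1.37e-07, 2.03e-07 and 1.18e-05) and −2.01, −2.53 and −2.76 for RPL13AP3. With 2 or 3 reads the ratio of read shares to pUC19 is loose: 0.089 for RPS10P7 in DNMT1 (95% exact interval 0.018 to 0.277), and for RPL13AP3 0.112 in DNMT3A (0.022 to 0.356) and 0.081 in DNMT3B (0.0094 to 0.315). RPL13AP20, which reached 8.32 TPM in EGFP, had −1.30, −1.15 and −0.91, and the last was not called. Under TMM scaling and without the DNMT rows, it was not called in DNMT1 or DNMT3A either (exact test, adjusted p of 0.00101 to 0.00192). With a pseudocount of 1 TPM, RPL13AP3 in DNMT1 (−0.91) and RPL13AP20 in DNMT3A (−0.94) fell below 2-fold. All 3 rows were called in the EGFP comparisons too, except RPL13AP3 in DNMT1.

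The parent genes of these rows did not share the pattern. RPS10 had 899.1 TPM in DNMT1, 920.0 in DNMT3A, 897.8 in DNMT3B, 820.8 in EGFP and 835.0 in pUC19, and RPL13A was highest in DNMT1, as given above. A trend across all genes separated the libraries the same way: Spearman's rho of the log2 ratio to pUC19 with the GC content of the gene was 0.29 in DNMT1, 0.28 in DNMT3A and 0.25 in DNMT3B, but 0.04 in EGFP, over 12383 genes. Over the 77 core genes rho lay between −0.14 and −0.01. These are descriptions, since genes of one library share its preparation. With each library's trend on GC content and length removed, the log2 ratios of the rows in DNMT1, DNMT3A and DNMT3B were −3.17, −2.80 and −2.01 for RPS10P7, −1.97, −2.55 and −2.68 for RPL13AP3 and −1.36, −1.11 and −0.72 for RPL13AP20.

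RPL19P12 was higher in every fusion library than in pUC19: 22 reads in DNMT1, 35 in DNMT3A, 35 in DNMT3B and 19 in EGFP against 8 in pUC19, the largest library. It was called at 2-fold in DNMT3A (log2 ratio 2.22) and DNMT3B (2.39), but not in DNMT1 (1.62) or EGFP (1.55), where the reads were fewer. RPS14P3 had 160 reads in DNMT1 and 175 in EGFP against 91 in DNMT3A and 80 in DNMT3B, with 200 in pUC19, and RPS18P9 had 320 and 282 against 204 and 167, with 408 in pUC19. Both were low in DNMT3A and DNMT3B (log2 fold changes −1.05 and −0.78 in the second fit, edgeR adjusted p of 0.0241 and 0.0357). RPL23AP7 was high in the same libraries, with 781 and 560 reads against 384 and 386 and 632 in pUC19 (log2 fold change 0.72, edgeR adjusted p = 0.0295). Their parents RPS14, RPS18 and RPL23A differed from the EGFP library by log2 ratios of −0.23 to 0.13 in DNMT3A and DNMT3B.

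**Figure D5:**
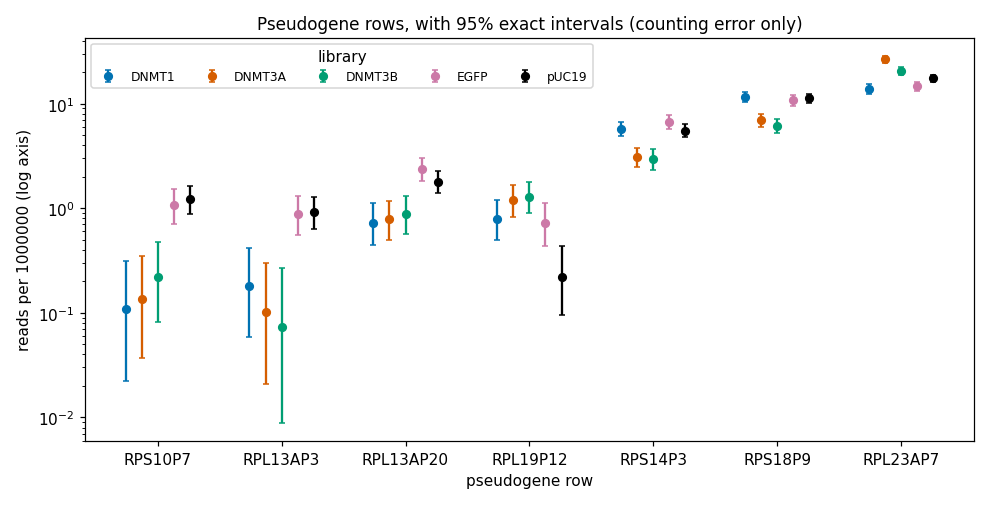
Reads per 1000000 (log axis) of 7 pseudogene rows in the 5 libraries, with 95% exact (Clopper-Pearson) intervals that cover counting error only. RPS10P7, RPL13AP3 and RPL13AP20 are low in the 3 fusions with a DNMT domain, while RPS14P3 and RPS18P9 are low and RPL23AP7 is high in DNMT3A and DNMT3B.

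The readthrough and antisense rows (RPL17-C18orf32, RPL36A-HNRNPH2, RPS10-NUDT3 and RPL34-AS1) stayed at or below 3.04 TPM. They overlap core genes, so their reads cannot be assigned with certainty. RPL36A-HNRNPH2 was called lower in DNMT1 than in pUC19, with a log2 ratio of −0.93.

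A list of 20 other genes, many of which share the TOP start, is given for comparison. It holds elongation and initiation factors, and also genes of other functions such as IPO5 (nuclear import), NAP1L1 (a histone chaperone) and HNRNPA1 (RNA processing). Of the 20 genes, 2 were higher and 2 lower than in pUC19 at the smaller threshold in the DNMT1 library, and 0 were higher in the other 3, where 7 (DNMT3A), 7 (DNMT3B) and 4 (EGFP) were lower. Their median log2 ratio was −0.02 in DNMT1, −0.16 in DNMT3A, −0.22 in DNMT3B and −0.15 in EGFP, below that of the core genes in each. EEF2, the translocation factor, and EIF3F, an initiation factor subunit, were the higher ones in DNMT1 (0.37 and 0.35). The lower ones in DNMT1 were NPM1, a nucleolar protein of ribosome assembly, and IPO5. NPM1 was lower in all 4, with −0.57, −0.67, −0.72 and −0.82. In DNMT3A, IPO5 (−1.05), NAP1L1 (−0.62) and HNRNPA1 (−0.35) were 3 of the 7 lower ones. FAU, which encodes a ribosomal protein fused to a ubiquitin-like protein, had log2 ratios between −0.14 and 0.11 and was not called. Of 81 genes of mitochondrial ribosomal proteins, 3, 12, 4 and 0 were higher and 29, 20, 28 and 29 lower in DNMT1, DNMT3A, DNMT3B and EGFP, with medians of −0.21, −0.14, −0.16 and −0.19.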

How the data were processed

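RNA was sequenced from 5 HEK293T libraries, 1 per group, grouped by sample title. The authors filtered reads by quality, adaptor and length, mapped them to RefSeq transcripts of hg19 using tmap (version not given in the sources used here), and kept uniquely mapped reads with few mismatches. The deposited read counts are raw whole numbers per gene. The deposited TPM column holds counts per gene length with an equal total in each library, and recomputation gave the same values. The deposited coverage in percent was read as the part of a transcript with reads. Genes missing from a table were set to 0.

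Libraries were compared with two-sided exact conditional binomial tests given their totals (Benjamini-Hochberg adjustment), and fold changes used TPM + 0.1. The test works on read shares and the fold on TPM. edgeR 4.0.16 (R 4.3.3; TMM, filterByExpr, quasi-likelihood F-test) gave the fits across constructs, and DESeq2 1.42.0 was an alternative. The pairwise alternatives comprised TMM scaling, a pseudocount of 1 TPM, TPM without the DNMT rows, a minimum of 1 TPM, a coefficient of variation of 0.2, and each library's loess trend (span 0.3) on GC content and length, available for 86.3% of genes. Start sites came from canonical transcripts of GENCODE v44 on GRCh37. scipy 1.17.1 and numpy 2.4.6 were used. The scripts were tested on simulated counts.

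Named genes were, by rule, the 5 highest and 5 lowest core genes in pUC19, the 3 core genes with the largest ratio in each direction per comparison with pUC19, members called at 2-fold with at least 5 TPM, the 3 smallest p per direction in each fit, 6 paralogs with their parents, and 7 genes named for their roles. Those outside the rule (other called members, parents of pseudogenes and list genes) were chosen after their values were seen. Values of a few genes are not reported here, although counts and medians over the lists include them. The members and lists were chosen with earlier results of these data known.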

Additional observations from a re-analysis of the deposited data

Results flagged for a closer look

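In the comparison of the DNMT3A and DNMT3B fusions with the DNMT1 and EGFP fusions, 3 of 105 members passed the edgeR quasi-likelihood test. All 3 are pseudogene rows, 1 higher and 2 lower, where 6.9% of all genes were higher and 4.15% lower. RPL23AP7 was higher, with a log2 fold change of 0.72 (adjusted p = 0.0295, higher in both libraries than in either of the others). RPS14P3 was lower, with −1.05 (adjusted p = 0.0241), and RPS18P9 was lower, with −0.78 (adjusted p = 0.0357), again in both libraries. The rows were picked from this fit and the alternatives reuse its libraries, so an unchanged sign of the log2 fold change is no separate check. Its range is given over the alternatives that gave a value, 7 for RPL23AP7 (0.55 to 0.87), 7 for RPS14P3 (−1.11 to −0.98) and 8 for RPS18P9 (−0.86 to −0.68). The adjusted p ranged over them from 0.00487 to 0.362, from 0.00596 to 0.244 and from 0.00396 to 0.283, and was under 0.05 in 5 of them for each. Without the DNMT3A or the DNMT3B library, none of the 3 passed.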

How the results depend on the processing

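No paired analysis was possible because each group has 1 library, and the replicate number 1 that all carry does not tie libraries together. A pseudocount of 1 TPM and a minimum of 1 TPM left the core counts and medians as reported. TMM scaling moved the DNMT1 comparisons: against pUC19 29 core genes were higher and 0 lower, with a median of 0.27, and against EGFP 19 were higher, with a median of 0.22, because the median of all genes moved from −0.15 to −0.03 and from −0.13 to 0.00 with them. TPM without the DNMT rows left 0 core genes lower in DNMT3B against pUC19 and 6 against EGFP, beside 16% and 9.02% of all genes. With an assumed coefficient of variation of 0.2, 0 calls were left at either size threshold. Removal of the GC and length trend gave 29 core genes higher and 0 lower against pUC19 in DNMT1 (median 0.24), 13 in DNMT3A (0.13), 7 in DNMT3B (0.14) and 13 in EGFP (0.18). Against EGFP it gave 1 lower in DNMT1, 3 lower in DNMT3A and 3 lower in DNMT3B, beside 9.25%, 11.4% and 9.71% of all genes. The core medians were 0.06, −0.05 and −0.017.

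The share of TPM in the DNMT1, DNMT3A, DNMT3B, EGFP and pUC19 libraries was 24.2%, 22.0%, 20.8%, 22.5% and 21.5% without the DNMT rows. For the core genes alone it was 23.8%, 21.5%, 19.97%, 22.4% and 21.4%. TMM scaling cannot change a share within a library. The summed levels of the members under it were 25.6%, 21.5%, 19.7%, 21.9% and 21.1% of the mean total of the libraries. DNMT1 was the highest and DNMT3B the lowest in each.

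The fit of 4 fusions against pUC19 called 0 members under each alternative. In the fit of DNMT3A and DNMT3B against DNMT1 and EGFP, DESeq2 called 4 members lower, the fit without a filter 1, and the fit with GC and length offsets 0 higher and 1 lower, since RPL23AP7 and RPS14P3 have no GC value and could not enter it (101 members tested in place of 105). Leaving out each fusion gave 0 to 2 members higher and 0 to 45 lower, the 45 without the EGFP library. The cause was not tested. Each of these fits leaves 1 library alone in its arm. Far fewer of all genes passed without DNMT3A or DNMT3B than without DNMT1 or EGFP. The counts of members therefore cannot be compared between these fits. The core median log2 fold change was −0.32 without EGFP and −0.08 without DNMT1, against −0.19 in the full fit. It was −0.26 without DNMT3A and −0.14 without DNMT3B. Counting error limits the pseudogene rows with few reads, and the absence of replicates limits every comparison.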
